A study of Mus musculus with 8 samples.

Results

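Histones are the proteins that DNA is wound around in chromatin, and this account describes their genes in natural killer (NK) cells of mouse spleen. Members were taken by symbol: every gene named Hist1h, Hist2h, Hist3h or Hist4h in the annotation of the GRCm38 build, and every gene whose symbol marks an H1, H2A, H2B, H3 or H4 variant. The rule gave 110 of the 54838 genes counted. Of these, 67 were coding genes of the Hist1 to Hist4 clusters, 34 were coding variant genes outside them, and 9 were pseudogenes or antisense transcripts. A read was found for 85 members, and 72 passed a filter on low counts and were tested.

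The teNK group held 4 libraries from mice with the MMTV-PyMT transgene, tumour-bearing per the series design, and the hNK group held 4 libraries from healthy wild-type FVB/n mice. MMTV-PyMT drives the polyoma middle T oncogene from a promoter active in mammary epithelium, so the tumours are mammary and the NK cells sampled are splenic. Both groups were sorted as CD45+, CD49b+ and CD3- cells and kept for 12 to 16 h in medium with cytokines before RNA was taken. Which cytokines were used, how old the mice were, on which strain the transgene was kept and how many animals went into a library is not stated. The labels also leave unsaid whether libraries of a group are separate animals, so each p-value reflects the spread between libraries, which may be technical.

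Reads on genes numbered 13111043 to 16209895 per teNK library and 5202131 to 12419324 per hNK library, so counting error is larger in hNK, above all in hNK 3 and hNK 4. Histone genes took 0.480% to 0.515% of these reads in teNK and 0.419% to 0.463% in hNK. Of the 7 NK markers, 6 were called higher in teNK and Eomes was called lower (log2 fold change -0.30, adjusted p = 0.00107), and their summed level was 5500 to 6140 in teNK against 2400 to 2910 in hNK, in CPM, which are read counts brought to a common library size. The summed T cell markers were at 29.2 to 39.4 CPM in teNK and 23.4 to 46.1 CPM in hNK. Of the 4 that were tested, Cd3d was called higher in teNK (log2 fold change 1.22) and 3 were not called. Summed B cell markers stood at 29.6 to 49.5 CPM in teNK against 0.635 to 4.78 CPM in hNK, and all 6 were called higher. Summed platelet markers stood at 167 to 290.0 CPM in teNK against 18.0 to 42.1 CPM in hNK, and all 7 were called higher. Myeloid markers summed to 7.05 to 15.7 CPM in teNK against 0.165 to 0.915 CPM in hNK, and erythroid markers to 1.85 to 6.86 CPM against 0 to 0.361 CPM, with Hba-a2 at 0 in every library. Any part of those other cells in the histone results was not tested. In bulk RNA, fewer cells that make a transcript and less of it per cell cannot be told apart.

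Clustered histone genes, the replication-dependent ones, are used mainly in S phase, when newly copied DNA has to be packed. They are nearly all without introns, and their mRNAs end in a conserved stem-loop that the protein Slbp binds in place of a poly(A) tail. Replacement variants such as H2A.Z and the replacement H3 histones come from genes with introns and polyadenylated mRNAs, and are made outside S phase too. Other variant genes differ: in the annotation H1f0, H2afj and H2afx have a transcript of 1 exon. The libraries were made with a kit that selects poly(A) RNA, per the labels, and how much of each histone mRNA carried a tail was not measured.

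The stem-loop was searched for in the sequence after the stop codon of every annotated transcript, because it marks the replication-dependent class. It was found in 46 of the 67 clustered coding genes. Of the 21 without it, 13 had a gene model that stops at the stop codon. Among variants it was found in 2, H2afx and H2bfm. For comparison, 25 of 58677 coding transcripts of other genes held such a stem-loop (0.043%). The commonest of the 9 forms, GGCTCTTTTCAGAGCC, was found in 27 members. A further 7 had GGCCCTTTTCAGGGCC, and 6 had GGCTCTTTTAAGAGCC. The 16 bases of the stem-loop are in capitals below, with 5 bases on each side, for members that differed in how they responded.
Hist1h3b: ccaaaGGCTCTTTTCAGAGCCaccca
Hist1h1c: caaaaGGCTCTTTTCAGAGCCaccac
Hist1h4f: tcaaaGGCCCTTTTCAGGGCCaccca
Hist1h4d: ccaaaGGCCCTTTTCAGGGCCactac
Hist2h4: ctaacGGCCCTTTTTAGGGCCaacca
H2afx: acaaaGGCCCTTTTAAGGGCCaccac
Hist1h3b and Hist1h1c share their 16 bases, and so do Hist1h4f and Hist1h4d, yet within each pair the changes between groups were unlike, as given with each class.

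Across all 13903 genes tested with edgeR's quasi-likelihood test, 26.4% were called higher in teNK and 25.6% lower at a Benjamini-Hochberg adjusted p under 0.05. Calls in either direction made up 51.9%. Of the 72 histone genes tested, 39 were higher and 11 lower, and 22 were not called. Their median log2 fold change was 0.47, where the median over all genes tested was -0.02. The 60 clustered coding genes tested had 36 higher, 8 lower and a median of 0.58. Without hNK 2, 5 were lower rather than 8, and the calls of Hist2h2ac, Hist2h2bb and Hist4h4 were the ones lost. The 10 members tested outside the clusters had 3 higher, 3 lower and a median of 0.06. Libraries did not overlap between groups for 38 members that were higher in all 4 teNK libraries and for 7 that were lower; over all genes tested these patterns held for 24.1% and 22.4%. All but Hist1h2ai and Hist1h3h of the members called higher had separate libraries. Hist2h3c2, which was not called, had 1.40 to 1.76 CPM in teNK and 0.723 to 1.33 CPM in hNK and separated too.

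**Figure D1:**
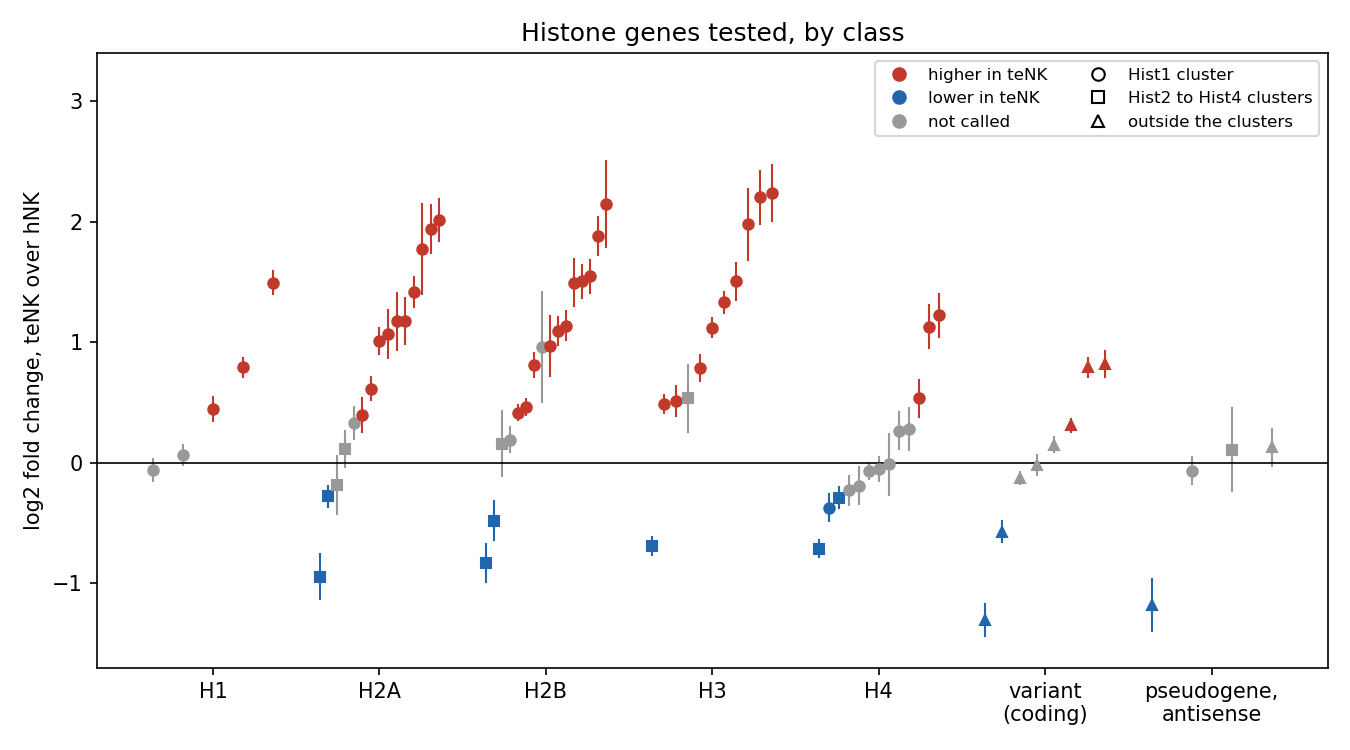
Log2 fold change of each tested histone gene, teNK over hNK (y axis), by class (x axis); bars are standard errors, colour gives the call, and the marker gives the cluster. Points of the H2A, H2B and H3 classes lie mostly above 0 and reach 2.24 with Hist1h3b, those of H4 lie around 0, and squares of the Hist2 to Hist4 clusters lie mostly below 0.

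By class, 9 of 11 tested H3 genes were higher in teNK, 11 of 16 H2B genes, 10 of 15 H2A genes, 3 of 5 H1 genes and 3 of 13 H4 genes. Lower were 1 H3 gene, 2 H2B genes, 2 H2A genes, no H1 gene and 3 H4 genes. Median log2 fold changes were 1.12 for H3, 0.96 for H2B, 1.01 for H2A, 0.45 for H1 and -0.05 for H4. Each nucleosome takes the 4 core histones in equal number, so the core classes are set side by side, but the difference between classes was not tested. Summed over each class, H3 stood at 559.6 ± 32.1 CPM in teNK and 331.4 ± 43.0 CPM in hNK (SD, n = 4 each), a ratio of 1.69. The sum for H2B was 395.6 ± 29.1 CPM in teNK and 232.1 ± 23.4 CPM in hNK, a ratio of 1.70. For H2A it was 234.5 ± 21.5 CPM in teNK and 140.6 ± 12.6 CPM in hNK, a ratio of 1.67. In these 3 classes every teNK library lay above every hNK library, and the ratios were nearly the same. Each clustered H2A gene overlaps an annotated gene on the opposite strand, and few genes of the other core classes do. As the strand setting is not given, H2A reads may have been lost there, and the H2A level against other classes is uncertain.

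Summed H4 did not follow them. It was 562.0, 465.8, 589.1 and 547.5 CPM in teNK 1 to 4 and 497.4, 543.3, 567.0 and 637.9 CPM in hNK 1 to 4, a ratio of means of 0.964. The highest H4 sum was in an hNK library, the lowest in a teNK library, and the groups overlapped. Summed H1 was 2185 ± 90.1 CPM in teNK and 1827 ± 294 CPM in hNK, a ratio of 1.20, and hNK 2 at 2185 CPM lay above teNK 2 and teNK 3. Summed coding variants were 1328 ± 34.6 CPM in teNK and 1089 ± 32.8 CPM in hNK, a ratio of 1.22 with no overlap.

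**Figure D2:**
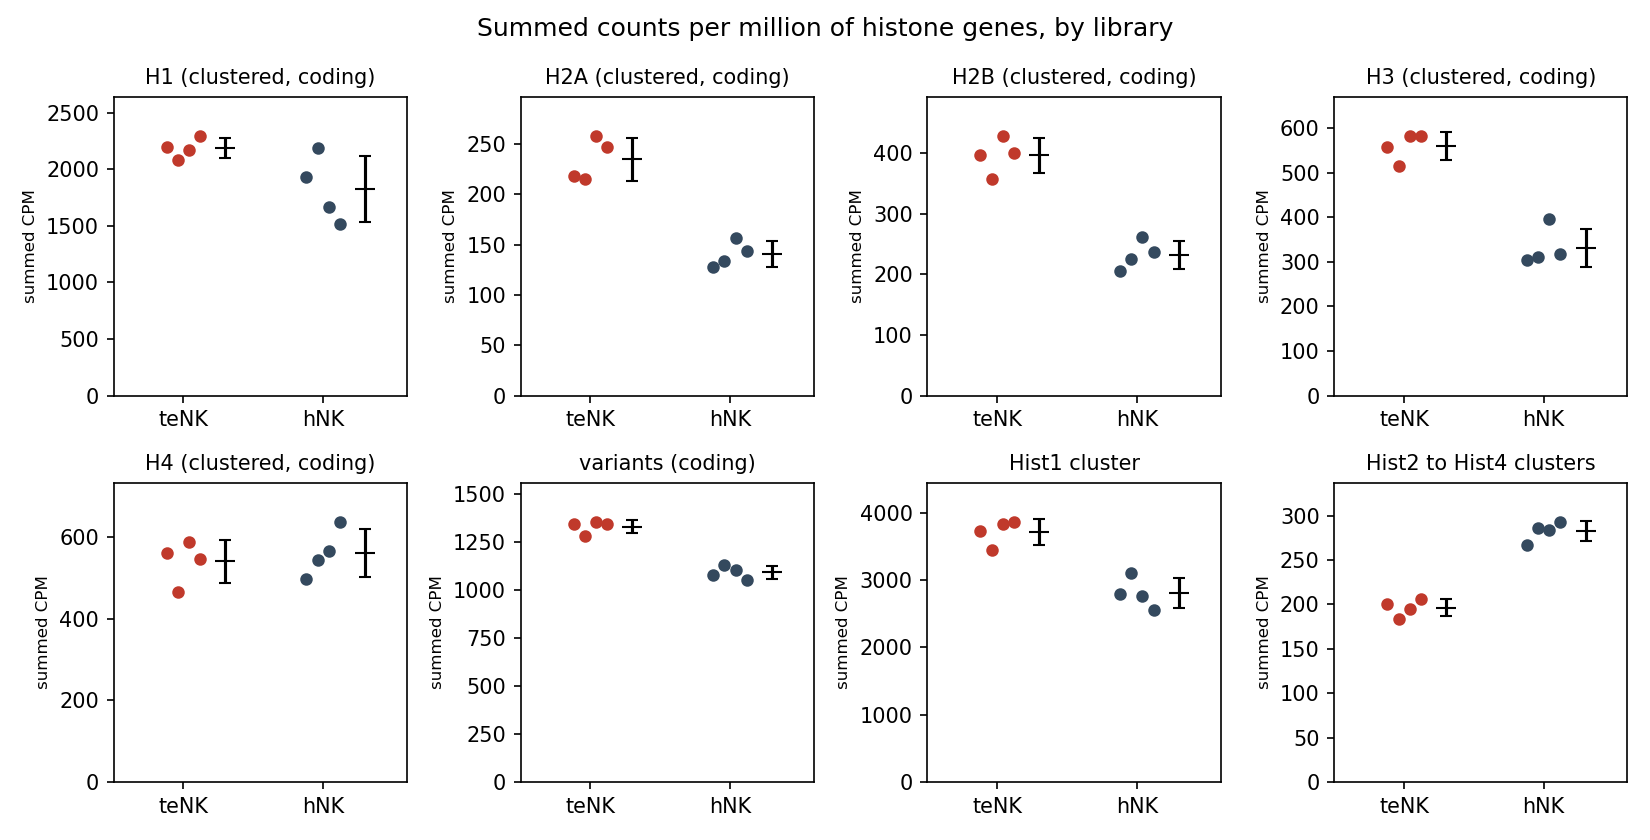
Summed CPM (y axes, starting at 0) of each class and cluster in the 4 teNK and 4 hNK libraries; points are libraries 1 to 4 from left to right, and bars give the mean ± SD. H2A, H2B and H3 separate the groups with teNK higher, H4 overlaps (ratio 0.964), and the Hist2 to Hist4 clusters separate with teNK lower (ratio 0.694).

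H1 is the linker histone, which binds DNA between nucleosomes and compacts them. Hist1h1b showed the largest change among the tested H1 genes. Its level was 59.8, 61.3, 71.4 and 66.7 CPM in teNK 1 to 4, against 18.5, 22.1, 25.2 and 28.2 CPM in hNK 1 to 4. Every teNK library was more than 2-fold above every hNK library (log2 fold change 1.49 ± 0.11 SE, adjusted p = 5.18e-09). Hist1h1a, another linker gene of dividing cells, had 33.7 to 40.3 CPM in teNK and 19.3 to 23.4 CPM in hNK, and rose by a log2 fold change of 0.79. Hist1h1c had 1043, 976, 1067 and 1105 CPM in teNK, against 869, 901, 713 and 591 CPM in hNK. It rose less (0.45 ± 0.11, adjusted p = 0.0022), and its hNK libraries spread more widely than its teNK libraries.

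Hist1h1d and Hist1h1e were not called. Hist1h1e had 710.3 to 796 CPM in teNK and 631 to 877 CPM in hNK (log2 fold change 0.06, adjusted p = 0.603), and Hist1h1d had 259 to 292 CPM in teNK and 250.4 to 363 CPM in hNK (-0.06, adjusted p = 0.632). Per kilobase of exon, Hist1h1c had the highest level of the tested members, at 671.6 CPM per kb in teNK and 492.6 in hNK, followed by Hist1h1e at 394.7 in teNK and 377.7 in hNK. Hist1h1c, Hist1h1d and Hist1h1e together held 95% to 95.4% of the clustered H1 reads in teNK libraries and 96.9% to 98.0% in hNK libraries. Hist1h1b held 2.72% to 3.29% of them in teNK and 0.959% to 1.85% in hNK, so these read shares differed without overlap between groups. The shares were not scaled to exon length and do not give the mix of linker transcripts. Hist1h1e overlaps Hist1h2be on the same strand, and reads there may be split or lost. Hist1h1t, a testis linker gene, had 2 reads in all.

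H2A pairs with H2B in the nucleosome, and 10 of the 11 tested H2A genes of the Hist1 cluster were higher in teNK. Hist1h2ab (chr13:23751126-23751598) had 43.6, 47.6, 65.9 and 52.7 CPM in teNK, against 9.73, 9.77, 18.8 and 17 CPM in hNK. Its groups were far apart, although hNK 3 and 4 stood above hNK 1 and 2 (log2 fold change 2.01 ± 0.18, adjusted p = 1.03e-07). Hist1h2af had 13.1 to 16.3 CPM in teNK and 2.14 to 5.42 CPM in hNK (1.94 ± 0.21). Hist1h2ae had 22.0 to 30.8 CPM in teNK and 8.31 to 11.4 CPM in hNK (1.42 ± 0.13). Smaller rises without overlap were those of Hist1h2ak (1.01), Hist1h2ao (1.07), Hist1h2ag (1.17), Hist1h2an (1.18) and Hist1h2ac (0.61).

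Hist1h2ah rose by 1.77 on the log2 scale from few reads, at 1.22 to 1.93 CPM in teNK and 0.318 to 1.08 CPM in hNK. Hist1h2ai rose by 0.40, but its groups overlapped, at 10.3 to 14.1 CPM in teNK and 8.06 to 12.7 CPM in hNK, and the adjusted p of 0.0329 was lost when any library other than hNK 4 or teNK 2 was left out. Hist1h2ad was the 1 tested H2A gene of the cluster that was not called, with 6.92 to 9.40 CPM in teNK and 5.94 to 7.23 CPM in hNK (0.33, adjusted p = 0.0671), and it was called without teNK 2 (0.41, adjusted p = 0.0296).

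H2B genes of the Hist1 cluster gave a like count, with 11 of 13 tested higher in teNK. Hist1h2bb (chr13:23746734-23747241) had 84.8, 73.6, 100.1 and 89.4 CPM in teNK, against 22.3, 27.6, 42.7 and 33.8 CPM in hNK (log2 fold change 1.5 ± 0.14, adjusted p = 2.11e-07). Hist1h2bm had 21.8, 20.0, 24.4 and 23.9 CPM in teNK, against 4.74, 4.61, 8.58 and 8.31 CPM in hNK (1.88 ± 0.17, adjusted p = 1.07e-07). In both genes the teNK libraries were all higher, and hNK 3 and 4 exceeded hNK 1 and 2. Hist1h2bk had the largest log2 fold change among H2B genes, 2.15 ± 0.36, at low levels of 3.68 to 5.54 CPM in teNK and 0.318 to 2.53 CPM in hNK.

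Rises between 1.09 and 1.55 were measured for Hist1h2bn, Hist1h2bl, Hist1h2bj and Hist1h2bh. Hist1h2be had 85.1 to 98.9 CPM in teNK and 62.2 to 75.0 CPM in hNK, and rose by 0.41, and Hist1h2bg had 54.4 to 59.1 CPM in teNK and 35.4 to 44.9 CPM in hNK, and rose by 0.46. Hist1h2bc rose by 0.81 and Hist1h2bq by 0.97. Rises among the H2B genes thus ran between 0.41 and 2.15 on the log2 scale. Hist1h2bf (0.19, adjusted p = 0.168) and Hist1h2br (0.96, adjusted p = 0.0947) were not called. Without hNK 3, Hist1h2bf was called (0.30, adjusted p = 0.0224), and without hNK 2, Hist1h2br was (1.72, adjusted p = 0.0174). Hist1h2br had 0.762 to 1.38 CPM in teNK and 0.0831 to 0.953 CPM in hNK, where a floor of 3 counts is 0.190 to 0.241 CPM in teNK and 0.238 to 0.542 CPM in hNK.

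H3 carries many of the tail modifications that mark active and silent chromatin, and all 9 tested H3 genes of the Hist1 cluster were higher in teNK. Hist1h3b (chr13:23752267-23752886) had the largest log2 fold change of all tested members. Its level was 53.9, 51.3, 65.8 and 59.2 CPM in teNK, against 7.57, 6.91, 22.3 and 17.3 CPM in hNK. All teNK libraries lay above all hNK libraries, while hNK 3 and 4 were more than 2-fold above hNK 1 and 2 (2.24 ± 0.24, adjusted p = 8.6e-07). Hist1h3c had 53.6, 50.8, 75.4 and 67.0 CPM in teNK, against 7.90, 9.53, 20.4 and 20.8 CPM in hNK (2.20 ± 0.23, adjusted p = 4.99e-07). It repeated the pattern of Hist1h3b.

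Hist1h3i, the H3 gene with the highest level per kilobase in teNK (236.5 CPM per kb, against 95.4 in hNK), had 92.9, 94.9, 94.5 and 106 CPM in teNK, against 34.2, 34.5, 48.2 and 39.9 CPM in hNK (1.33 ± 0.09, adjusted p = 5.09e-09). Hist1h3g had 5.78 to 6.43 CPM in teNK and 0.499 to 2.71 CPM in hNK (1.98 ± 0.30). Hist1h3d rose by 1.5, Hist1h3a by 1.12, Hist1h3f by 0.78 and Hist1h3e by 0.49, all without overlap. Hist1h3h rose by 0.51, with 19.4 to 25.8 CPM in teNK and 14.3 to 20.9 CPM in hNK, where hNK 3 reached the teNK range.

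H4 forms a tetramer with H3. Of the 11 tested H4 genes of the Hist1 cluster, 3 were higher in teNK, 1 was lower and 7 were not called; the count higher is near the 26.4% of all genes tested. Hist1h4f (chr13:23551258-23551648) had 41.1, 32.0, 50.3 and 38.9 CPM in teNK, against 13.1, 13.5, 19.3 and 27.3 CPM in hNK. The groups did not overlap, with the nearest libraries at 32.0 CPM in teNK 2 and 27.3 CPM in hNK 4 (log2 fold change 1.22 ± 0.18, adjusted p = 3.3e-05). Hist1h4a had 8.19 to 11.2 CPM in teNK and 3.16 to 5.96 CPM in hNK (1.13 ± 0.19). Hist1h4b had 35.8 to 38.8 CPM in teNK and 15.9 to 34.5 CPM in hNK (0.54 ± 0.16, adjusted p = 0.0121), a call that DESeq2 did not make (adjusted p = 0.109). Its adjusted p ran from 1.49e-07 to 1 over all alternatives, the highest from the test against a 1.5-fold change.

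Hist1h4d, the H4 gene with the highest level per kilobase (193.7 CPM per kb in teNK and 204.1 in hNK), had 232, 194, 230.4 and 225 CPM in teNK, against 212, 219, 247 and 252 CPM in hNK. Its libraries overlapped and it was not called (-0.07 ± 0.07, adjusted p = 0.441). Hist1h4n, next in level per kilobase (181.8 CPM per kb in teNK and 189.2 in hNK), had 64.4 to 96.9 CPM in teNK and 68.8 to 89.6 CPM in hNK (-0.05, adjusted p = 0.72). Hist1h4c, Hist1h4h, Hist1h4j, Hist1h4k and Hist1h4m were not called either, with log2 fold changes between -0.23 and 0.28. Hist1h4i was the 1 tested gene of the Hist1 cluster that was lower, at 12.2 to 14.2 CPM in teNK and 13.8 to 19.9 CPM in hNK (-0.37 ± 0.12, adjusted p = 0.0141), with overlapping groups.

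**Figure D3:**
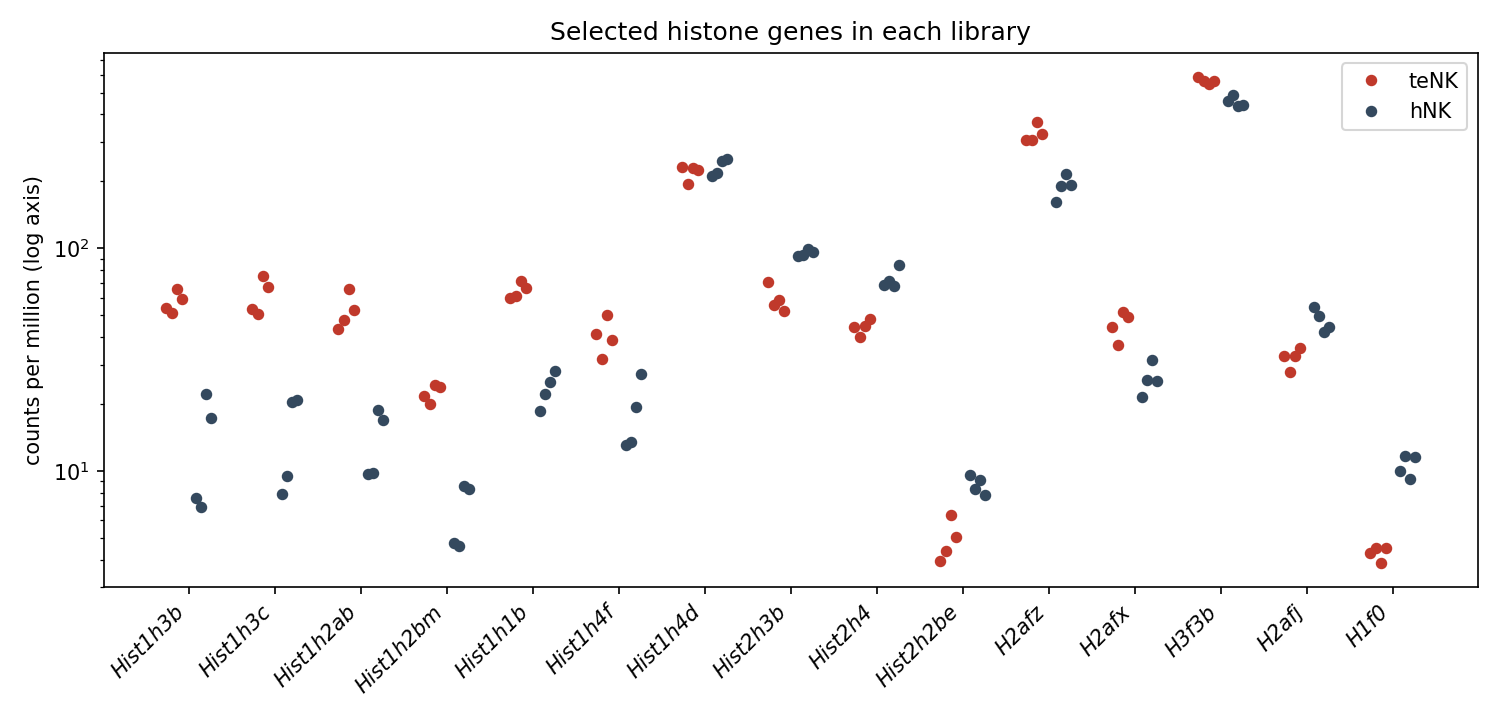
CPM on a log axis for 15 histone genes in the 4 teNK and 4 hNK libraries, each point a library in order 1 to 4. Hist1h3b, Hist1h3c, Hist1h2ab and Hist1h2bm were higher in every teNK library, with hNK 3 and 4 above hNK 1 and 2; Hist1h4d overlapped; Hist2h3b, Hist2h4, Hist2h2be, H2afj and H1f0 were lower in every teNK library.

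The clustered genes also differed by location. Over all genes tested, 26.4% were higher in teNK and 25.6% lower. The Hist1 cluster on chromosome 13 had 36 higher, 1 lower and 12 not called of 49 tested, with a median log2 fold change of 0.97. The Hist2, Hist3 and Hist4 clusters, on chromosomes 3, 11 and 6, had 0 higher, 7 lower and 4 not called of 11 tested, with a median of -0.29. Their summed level was 200.5, 183.7, 195.0 and 205.5 CPM in teNK, against 267.3, 286.5, 284.2 and 293.0 CPM in hNK, a ratio of 0.694. Summed Hist1 genes were 3720 ± 191 CPM in teNK and 2809 ± 227 CPM in hNK, a ratio of 1.32. Neither sum overlapped between groups, and the cluster sums differed in direction. Hist1 genes lie in separate blocks, and the block nearer the start of the chromosome had 15 of 21 higher (median 1.07) and the farther one 21 of 28 (median 0.79).

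Hist2h4, the H4 gene of the Hist2 cluster, had 44.2, 40.1, 44.9 and 48.3 CPM in teNK, against 68.8, 71.2, 67.6 and 84.4 CPM in hNK (log2 fold change -0.71 ± 0.08, adjusted p = 1.65e-06). Hist2h3b, an H3 gene in the same cluster, had 70.5, 55.7, 58.4 and 52.1 CPM in teNK, against 92.8, 93.1, 99.8 and 96.8 CPM in hNK (-0.69 ± 0.08, adjusted p = 2.85e-06). Every teNK library was below every hNK library in both genes. Hist2h2be had 3.95, 4.38, 6.35 and 5.04 CPM in teNK, against 9.56, 8.34, 9.07 and 7.77 CPM in hNK (-0.83 ± 0.17, adjusted p = 0.00048). Hist2h2aa2 had 1.91 to 2.90 CPM in teNK and 4.52 to 4.74 CPM in hNK (-0.95 ± 0.19, adjusted p = 0.000606). These 4 genes were the ones of the Hist2 cluster with separate libraries and a lower level in teNK.

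The other calls outside Hist1 were smaller and their groups overlapped. Hist2h2ac had 34.0 to 41.3 CPM in teNK and 38.6 to 52.4 CPM in hNK (-0.28, adjusted p = 0.021), Hist2h2bb had 4.32 to 7.49 CPM in teNK and 7.26 to 9.53 CPM in hNK (-0.48, adjusted p = 0.0278), and Hist4h4 had 25.9 to 33.6 CPM in teNK and 31.9 to 38 CPM in hNK (-0.29, adjusted p = 0.0187). Hist2h2ac lost its call without any 1 of hNK 2, hNK 3, teNK 1 and teNK 3 (adjusted p 0.0544 to 0.0767). Hist2h2bb lost it without any 1 of hNK 2, teNK 2 and teNK 3 (0.0628 to 0.102), and Hist4h4 without any 1 of hNK 2, teNK 1 and teNK 2 (0.0614 to 0.0687). Hist3h2a and Hist3h2ba were not called, nor was Hist2h2ab. The difference in response between clusters was not tested on its own.

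Histone variants outside the clusters moved in both directions. H2afz encodes H2A.Z, which sits at promoters and enhancers, and is also raised in dividing cells. It had 306, 308, 368 and 328 CPM in teNK, against 161, 191, 215 and 193 CPM in hNK, with a wide gap between the groups (log2 fold change 0.79 ± 0.08, adjusted p = 7.98e-07). H2afx encodes H2A.X, which is phosphorylated at DNA breaks, and is 1 of the 2 variant genes with the stem-loop. Its level was 44.2, 36.8, 51.7 and 49.2 CPM in teNK, against 21.5, 25.6, 31.7 and 25.3 CPM in hNK, again without overlap (0.82 ± 0.12, adjusted p = 2.28e-05). H3f3b, which encodes the replacement H3 histone of transcribed chromatin, had 587, 565, 550.1 and 563 CPM in teNK, against 460.0, 491, 436 and 439 CPM in hNK (0.31 ± 0.06, adjusted p = 0.000571).

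H1f0, the linker histone of resting and differentiated cells, had 4.28, 4.51, 3.86 and 4.51 CPM in teNK, against 9.98, 11.7, 9.24 and 11.6 CPM in hNK. The highest teNK library was at 4.51 CPM and the lowest hNK library at 9.24 CPM (log2 fold change -1.31 ± 0.14, adjusted p = 1.03e-06). H2afj, an H2A variant gene, had 33.0, 27.8, 32.8 and 35.9 CPM in teNK, against 54.4, 49.5, 42.0 and 44.4 CPM in hNK (-0.57 ± 0.09, adjusted p = 8.68e-05). H2afj and Hist4h4 lie near each other on chromosome 6, and both were lower in teNK. The linker genes therefore differed in direction, with Hist1h1b, Hist1h1a and Hist1h1c higher and H1f0 lower.

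H2afy, the macroH2A gene, had 193 to 211 CPM in teNK and 208 to 232 CPM in hNK (-0.13, adjusted p = 0.0902). H2afv, a second H2A.Z gene, had 31.8 to 39.4 CPM in teNK and 33.4 to 40.5 CPM in hNK (-0.02, adjusted p = 0.887). H3f3a encodes the same protein as H3f3b and had 106 to 119 CPM in teNK and 92.5 to 113 CPM in hNK (0.15, adjusted p = 0.0897), which was called without teNK 2 or without hNK 2 (adjusted p = 0.0499 and 0.0438, and up to 1 over all alternatives). H3f3aos, an antisense transcript that overlaps H3f3a, fell to 1.58 to 2.83 CPM in teNK, against 3.46 to 5.64 CPM in hNK (-1.18 ± 0.22, adjusted p = 0.000301). How strand was treated in the counting is not given in the sources used here, and reads of the overlapping genes may be mixed. Hist1h2al, Hist3h2bb-ps and H3f3c, annotated as pseudogenes, were not called.

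Histone genes of the clusters often lie head to head and share the stretch between their starts. The annotation held 13 such pairs with starts less than 1000 bases apart, and both genes were tested in 10. In 8 pairs both genes were higher in teNK, in 1 both were lower (Hist2h2ac and Hist2h2be), and in 1 neither was called (Hist1h2bf and Hist1h2ad). Of all tested genes of the Hist1 cluster, paired or not, 10 of 11 H2A, 11 of 13 H2B and 9 of 9 H3 genes were higher. The part of the shared stretch in the pairs' calls was not tested. With all libraries, no pair had calls in opposite directions or a call in 1 gene only. This depends on single libraries: Hist1h2bf was called without hNK 3 and Hist1h2ad without teNK 2, and the calls of Hist1h2ai and Hist2h2ac were lost without several of the libraries, as given above. The partners' log2 fold changes differed by 0.08 to 0.96, with a median of 0.35. Hist1h2ak and Hist1h2bn were the closest (1.01 and 1.09), and Hist1h2ae and Hist1h2bg the farthest apart (1.42 and 0.46).

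**Figure D4:**
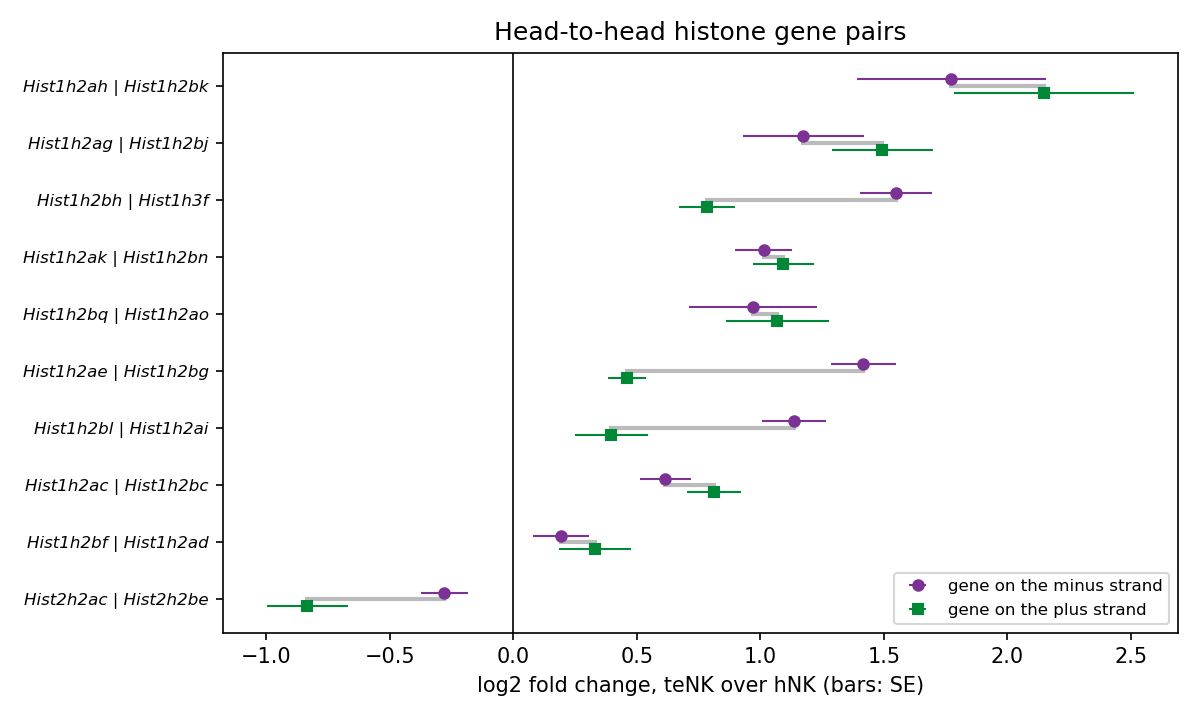
Log2 fold changes (x axis, teNK over hNK, bars are standard errors) of the genes on the minus and plus strand of the 10 head-to-head pairs with both genes tested. Both members lie above 0 in 9 pairs, of which 8 were called for both genes, and below 0 in the pair Hist2h2ac and Hist2h2be.

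Promoters from RefSeq on GRCm38.p6 could be matched to 63 of the 72 tested members, and 3 motifs were searched on both strands of the 250 bases before the start. The CCAAT box was in 5 of 5 H1, 15 of 15 H2A, 14 of 14 H2B and 8 of 9 H3 promoters, but in 3 of 12 H4 promoters (25.0%); 34.2% of all 27025 promoters held it. TATAAA was in 4 of 5 H1, 6 of 15 H2A, 6 of 14 H2B, 4 of 9 H3 and 6 of 12 H4 promoters, against 12.9% of all. The octamer ATTTGCAT was in 6 of 15 H2A and 6 of 14 H2B promoters and in 0 of the H1, H3 and H4 promoters, against 1.59% of all. Short motifs may overlap one another, and a match is a description of letters, not a site of binding. Among clustered coding genes, 31 of 33 that were higher in teNK held a CCAAT box, as did 4 of 6 that were lower and 10 of 16 that were not called. The H4 class has few of the CCAAT promoters and few of the genes called higher, so these shares mix class and call. Within H2B the box was in 10 of 10 genes called higher, 1 of 1 lower and 3 of 3 not called. H2A promoters all held it as well, whatever their call. The part of the box in the calls was not tested.

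The 150 bases before the start are shown for a pair of H2B genes that rose in teNK, to show how CCAAT boxes and the octamer are laid out. Capitals mark CCAAT and the octamer, each as read on either strand. Hist1h2bm lies at chr13:21721894-21722043 and Hist1h2bj at chr13:22043048-22043197, both on the plus strand of GRCm38.p6.
Hist1h2bm: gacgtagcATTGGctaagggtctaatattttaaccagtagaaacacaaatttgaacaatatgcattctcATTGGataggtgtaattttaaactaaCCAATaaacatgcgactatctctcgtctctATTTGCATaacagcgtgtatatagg
Hist1h2bj: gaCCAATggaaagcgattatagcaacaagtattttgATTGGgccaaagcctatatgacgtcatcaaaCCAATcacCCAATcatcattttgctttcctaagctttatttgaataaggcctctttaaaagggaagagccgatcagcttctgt
The window of Hist1h2bj, which lies between Hist1h2bj and its head-to-head partner Hist1h2ag, holds several CCAAT boxes and no octamer. Both of its neighbours rose in teNK, Hist1h2ag by 1.17 and Hist1h2bj by 1.49.

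Gene models differ in where they end, which bears on which reads could be counted. Some models stop just after the stem-loop, and others run on further downstream. Polyadenylation sites were not searched for. Within the Hist1 cluster, models that end within 100 bases of the stem-loop had 13 higher and 0 lower of 18 tested, with a median of 1.20, and models that run at least 100 bases further had 10 higher and 1 lower of 16, with a median of 0.45. The models in which no stem-loop was found had 13 higher and 0 lower of 15, with a median of 1.01. Leaving out H4, the medians were 1.5 for the 13 tested short models and 0.49 for the 11 tested long ones. The long ones included the H1 genes Hist1h1c (0.45), Hist1h1d (-0.06) and Hist1h1e (0.06), and the short ones held no H1 gene. These medians therefore still mix class with where the model ends. Hist1h3b, whose model ends 51 bases after the stem-loop, and Hist1h1c, whose model runs on for 840, had the same 16 bases and log2 fold changes of 2.24 and 0.45. Hist1h4f ends 33 bases after it and Hist1h4d 770, with 1.22 and -0.07. Hist2h4 runs on for 1257 bases and was lower. The genes named so far were chosen after their values were seen, and other genes went the other way. Among short models, Hist1h4h (46 bases), Hist1h4n (31) and Hist2h2aa2 (35) had log2 fold changes of -0.19, -0.05 and -0.95. Among long models, Hist1h2bh (1214 bases), Hist1h2ae (151) and Hist1h4a (108) had 1.55, 1.42 and 1.13.

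**Figure D5:**
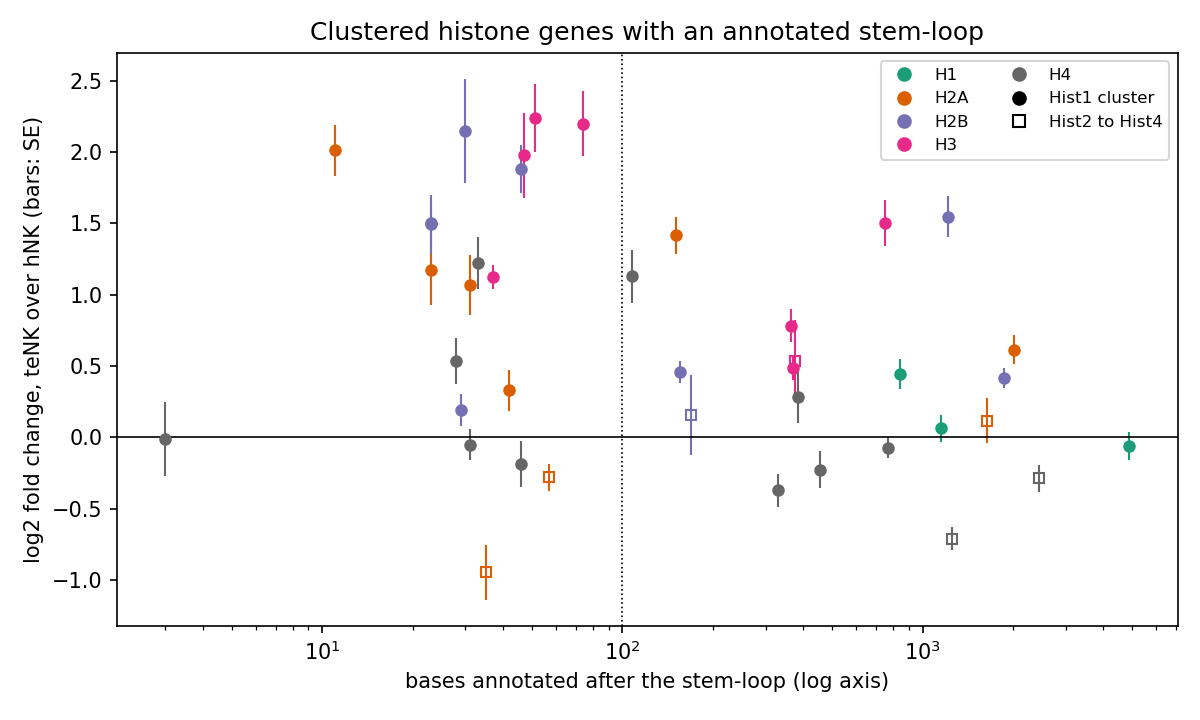
Log2 fold change (y axis, teNK over hNK, bars are standard errors) against the bases annotated after the stem-loop (x axis, log scale) for tested clustered genes, coloured by class, with filled circles for Hist1 and open squares for the other clusters. The largest values, up to 2.24, belong to models left of the dotted line at 100 bases, and models to its right spread around a median of 0.42.

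Many clustered genes are near copies of each other, so counts of single genes are uncertain. For each member, the share of its 50-base windows that also occur in another gene's transcripts was counted. At least 50% were shared in 29 tested genes, of which 19 were higher and 3 lower (median 0.97), and under 50% in 31, of which 17 were higher and 5 lower (median 0.45). Hist1h2ah (90.7% shared), Hist1h2bq (97.3%) and Hist1h3h (93.9%) are examples whose reads could belong in part to a relative. The same holds for Hist2h3b (79.7%) and Hist2h2aa2 (100%), which were lower in teNK. Hist2h4 (1.01%) and Hist2h2be (0%), also lower, shared little or nothing. Hist1h1b and Hist1h1a shared none of their windows with another gene and were higher in teNK. Hist2h2aa1 and Hist2h3c1 had 0 reads in all libraries, while their near copies Hist2h2aa2 and Hist2h3c2 had reads. Both genes without reads also overlap Gm20634 on the same strand, where reads may be lost.

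The 38 members that were not tested had few or no reads. For 25 there was no read in any library, and the other 13 had at most 69 reads in all 8 libraries together (H3f3a-ps1). The H2al genes, H2A variants of the testis, numbered 18 and had 5 reads in all. Hist1h2aj, Hist1h2ap and Hist1h2bp had 56, 57 and 61 reads. At this depth nothing can be said of a difference between groups in those members.

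Genes that make, carry and process histone mRNA were set beside the members. Of 19 tested genes of histone mRNA processing and transcription, 6 were higher in teNK, 4 lower and 9 not called, with a median log2 fold change of -0.02. These counts are near the shares over all genes tested (26.4% higher and 25.6% lower). Slbp, the stem-loop binding protein, had 166 to 174 CPM in teNK and 137 to 156 CPM in hNK (0.23 ± 0.06, adjusted p = 0.00317). Npat, the activator of clustered histone genes, was slightly lower, at 82.8 to 91.1 CPM in teNK and 97.8 to 106 CPM in hNK (-0.23 ± 0.06, adjusted p = 0.00526). Lsm10 and Lsm11, parts of the U7 particle that cuts histone pre-mRNA, were lower by log2 fold changes of -0.71 and -0.54. Srrt rose by 0.51, Stau1 by 0.32 and Casp8ap2 by 0.28, and Pou2f1, which binds the octamer, was lower (-0.44).

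Of 25 tested histone chaperones, which carry histones and load them on DNA, 4 were higher, 7 lower and 14 not called, where 26.4% of all genes tested were higher and 25.6% lower. Asf1b, an H3-H4 chaperone of dividing cells, rose by 0.80 and Atrx, part of a chaperone complex for the replacement H3, by 0.52, while Chaf1b, a subunit of the replication-coupled assembly factor, was lower (-0.78), as were Npm1 (-0.55) and the importin Ipo4 (-1.21). Of 24 tested S phase and proliferation genes, 15 were higher, 0 lower and 9 not called, with a median of 0.74. The 9 not called were genes of DNA replication, among them Mcm2 (-0.17), Mcm6 (-0.10), Cdt1 (0.04) and Rrm1 (0.05). Other replication genes, such as Mcm3 (0.26), were called higher. Their summed level was 1340 to 1610 CPM in teNK and 831 to 1120 CPM in hNK. Mki67 had 247 to 324 CPM in teNK and 31.0 to 78.5 CPM in hNK (2.30 ± 0.18), Top2a had 125 to 160.0 CPM in teNK and 37.9 to 69.6 CPM in hNK (1.38 ± 0.16), and Pcna had 197 to 223 CPM in teNK and 106 to 142 CPM in hNK (0.75 ± 0.08). For Top2a and Mki67, hNK 3 and 4 were again above hNK 1 and 2. The part of cycling cells in the histone results was not tested.

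RNAs that carry no poly(A) tail bear on the poly(A) selection and moved between the groups too. Of 8 tested, 1 was higher in teNK, 4 lower and 3 not called, where 26.4% of all genes tested were higher and 25.6% lower. Their median log2 fold change was -0.66, and the gene called higher was Snord13 (0.83). Their sum was 6750 to 8880 CPM in teNK and 12500 to 17800 CPM in hNK, nearly all from Rn7sk (-0.85 ± 0.12). Rmrp and Rpph1 were at 0 in every library. The direction of that sum, so largely that of Rn7sk, is that of the Hist2 to Hist4 clusters and opposite to that of the Hist1 cluster. The part of carry-over of such RNA in the histone counts was not tested. The teNK descriptions mention sequencing over several lanes and the hNK ones do not, so layout and group cannot be told apart.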

How the data were processed

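Read counts per Ensembl gene, whole and not normalized, were deposited for each library. Per the submitters' processing notes, the tools were HISAT2 2.1.0, SAMtools and HTSeq and the build was GRCm38. Neither strand setting nor annotation release is given in the sources used here. GENCODE release 21 for mouse gave symbols for 54809 of the 54838 identifiers. The 5 summary lines stayed out of library sizes and tests; 32.3% to 41.2% of reads were on the line for no gene and 1.52% to 2.07% on that for ambiguous reads.

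Counts were tested in R 4.3.3 with edgeR 4.0.16 (filterByExpr by group, TMM, quasi-likelihood F test on group alone) over 13903 of the 27313 genes with a read, with Benjamini-Hochberg adjustment over all of them and calls at an adjusted p under 0.05. Standard errors are absolute log2 fold changes over the root of F. CPM used TMM-scaled library sizes. Floors of 3 counts cover counting error only. Alternatives were RLE factors, DESeq2 1.42.0, 2 other filters, a test against a 1.5-fold change (glmTreat), a replicate block, each library left out and, for sums, plain totals. The fit was checked on simulated data.

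The members and companion lists were chosen with earlier results of these data known. Every histone gene that passed the filter could be named. Of each companion list, up to 6 genes with the smallest adjusted p could be named, plus Slbp and Npat. Mcm2, Mcm3, Mcm6, Cdt1 and Rrm1 were named besides, after their values were seen. Hist1h2bm and Hist1h2bj were chosen for the promoters, and the genes for stem-loops and figures, after their values were seen. RefSeq gave the promoters. The stem-loop pattern of 16 letters was searched after the stop codon. Correlations of log2 CPM were at least 0.992 within teNK and 0.982 within hNK, and 0.929 to 0.940 between groups. No deposited column was left unused.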

Additional observations from a re-analysis of the deposited data

Results flagged for a closer look

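In groups of 4 libraries, a library far from the other 3 was looked for in each tested gene and each sum (164 groups). Such a library was found in 9, where chance gives about 1 in 20. In teNK, teNK 2 was lowest for H3f3a (106 CPM, the others 117 to 119), for Hist1h2ac (15.0 CPM, the others 16.6 to 16.9) and for Hist1h4d (194 CPM, the others 225 to 232), and teNK 4 was highest for Hist1h3i (106 CPM, the others 92.9 to 94.9). In hNK, hNK 2 was highest for Hist1h1d (363 CPM, the others 250.4 to 265) and for Hist1h4m (2.54 CPM, the others 1.32 to 1.5). hNK 3 was highest for Hist1h3h (20.9 CPM, the others 14.3 to 15.0) and for the summed H3 genes (395.5 CPM, the others 303.6 to 316.7). hNK 4 was highest for Hist1h2ah (1.08 CPM, the others 0.318 to 0.333). Leaving out teNK 2 or hNK 2 brought H3f3a past the threshold, and leaving out hNK 2 turned the sign of Hist1h1d and Hist1h4m, neither of which was called.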

How the results depend on the processing

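Of the 72 histone genes, 39 kept their direction and side of the threshold under every one of 14 alternatives, and no called gene turned direction. RLE factors, no filter, the stricter filter and the replicate block each kept 39 higher and 11 lower calls, and DESeq2 kept 38 and 10. Leaving out 1 library gave 38 to 41 higher and 8 to 11 lower histone genes; over all genes, 3380 to 3766 higher and 3203 to 3497 lower. Clustered coding genes were 35 to 37 higher and 5 to 8 lower, and members outside the clusters 3 to 4 higher and 3 lower. Without hNK 3 and hNK 4 together, an alternative chosen after seeing the data, 40 were higher and 10 lower. The test against a 1.5-fold change asks for more: 1297 genes were then higher and 850 lower in all, 27 histone genes higher and 2 lower, 0 clustered genes lower and 1 gene outside the clusters higher. With plain totals every class ratio of teNK over hNK was smaller: 1.09 for H1 (2084 CPM in teNK and 1904 CPM in hNK), 1.52 for H2A, 1.56 for H2B, 1.54 for H3, 0.879 for H4 and 1.11 for variants (1267 CPM in teNK and 1138 CPM in hNK).

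Log2 fold changes of 8 genes that were not called turned sign: H2afv (0.004 with DESeq2, -0.054 to 0.048 with 1 library left out), Hist1h4m (0.022 with DESeq2, 0.034 with the replicate block, -0.117 to 0.298), Hist1h1d (-0.117 to 0.079), Hist1h1e (-0.003 to 0.16), Hist1h2al (-0.145 to 0.015), Hist1h4n (-0.165 to 0.036), Hist3h2ba (-0.027 to 0.335) and Hist3h2bb-ps (-0.093 to 0.323). The cause was not tested. The labels number the libraries of both groups 1 to 4 and do not say whether a number pairs them. Deviations of same-numbered libraries had correlations of 0.045, -0.107, 0.145 and 0.018, and those of other pairs ran from -0.18 to 0.225. This cannot decide the question, since a pairing need not leave a shared deviation over all genes. Depth limits hNK 3 and hNK 4 most.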
